A study of Rattus norvegicus with 6 samples.

Results

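The genes of glucose use examined here were 42 rat genes that carry glucose into the cell, split it by glycolysis, handle lactate, build and break down glycogen, and run the pentose phosphate branch. They were chosen by gene symbol and not by a measured value. Of the 42 genes, 37 were among the 12958 named genes of the deposited table, and 34 had a mean of at least 10 normalised counts over the 6 libraries and were tested. Pfkm, Aldoa, Pgk1, Ldhd and Pgd are not analysed here, and Pfkfb1, Pfkfb4 and Slc16a3 were under the minimum. RNA was sequenced from right ventricular (RV) tissue of male Sprague-Dawley rats. The control group was 3 RV samples of untreated rats at day 0. The SuHx group was 3 RV samples taken at 8 weeks from rats that had received SU5416, which blocks the receptor of vascular endothelial growth factor, and a period of hypoxia followed by normoxia, and whose RV was labelled decompensated. With controls of day 0 and SuHx samples of 8 weeks, what age and growth add and what the SuHx protocol adds cannot be told apart in any difference below.

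In cardiac muscle, glucose enters through the transporters GLUT1 (Slc2a1) and GLUT4 (Slc2a4), is trapped by hexokinase, and passes down glycolysis to pyruvate, from which lactate dehydrogenase makes lactate. Glucose 6-phosphate can instead be stored as glycogen, on a primer of glycogenin, or enter the pentose phosphate branch, which yields NADPH and ribose. The adult heart takes most of its energy from fatty acids, and a pressure-loaded RV is known for a greater use of glucose. Many of these steps have several isoforms, one of which is the usual form of adult striated muscle.

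Normalised counts, which are the authors' counts per gene corrected between libraries, summed to 11607609 to 12393415 in control and 12754296 to 18249330 in SuHx. Some libraries stood apart in ways that touch the results. Control 3 had the lowest level of long transcripts relative to ribosomal protein transcripts, a sign of RNA quality, at -0.75 log2 units against -0.29 and -0.017 in controls 1 and 2 and 0.14 to 0.57 in SuHx. Every control lay below every SuHx library in this level, so RNA quality in this sense and the group cannot be told apart. Control 3 also held 19667 normalised counts summed over 6 immediate early genes, against 1092 to 3380 in the other libraries. Control 1 held 53826 normalised counts over 6 atrial marker genes, against 2265 and 1263 in controls 2 and 3 and 16984 to 19424 in SuHx, where most were of Nppa. Markers of cardiomyocytes were abundant in every library, at 648090 to 792110 normalised counts summed over 8 genes in control and 595050 to 733730 in SuHx. Opposite changes lie within these sums, which therefore do not show an unchanged share of cardiomyocytes. Of the 8 genes, 2 lay above every control in every SuHx library and 2 lay below. Myh6 was at 320910 to 386590 in control and 131260 to 173600 in SuHx, and Myh7 at 25922 to 88972 in control and 149940 to 251480 in SuHx. The SuHx libraries are lettered A, B and C because their headings do not tie them to numbered rats. In bulk tissue, fewer cells of a type and less RNA per cell cannot be told apart. The labels number 3 libraries per group without stating that each stands for a separate rat, and a p-value therefore measures only the spread among these libraries, which may be technical. Values per library are given below in the order control 1, 2, 3 and SuHx A, B, C.

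Of the 34 tested genes, 3 were higher in the SuHx RV (Gbe1, Gyg1 and Pfkl), 1 was lower (Phkg1) and the other 30 missed the threshold, an adjusted p under 0.05 in a limma fit. Of all 10725 tested genes, 1.55% were called higher and 0.671% lower. Of the 4 genes that passed, 3 belong to glycogen, the largest step with 11 of the 34 tested genes. Gbe1 and Gyg1 act in its synthesis and Phkg1 in the control of its breakdown. The median log2 fold change of the 11 glycogen genes was 0.19, and of 13 further glycogen genes tested beside them 0 passed. Every SuHx library lay above every control for 12 of the 34 genes (35.3%), where 12.9% of all tested genes did so. Every SuHx library lay below every control for 3 (8.82%), against 11.6% of all tested genes. The median log2 fold change was 0.28 over the 34 genes and 0.0095 over all tested genes. With every library rescaled to the same total of normalised counts, the median of all genes fell to -0.31 and that of the 34 genes to -0.045. Rescaling shifts the log2 fold changes of all genes by nearly the same amount. The distance between the medians, 0.27 as deposited and 0.26 after rescaling, could therefore hardly change. With single libraries left out, this distance ran from 0.19 without SuHx B to 0.41 without control 2. At the same total, 0 of these genes were called higher and 2 lower (Phkg1 and Eno3), beside 90 higher and 191 lower among all genes.

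**Figure D1:**
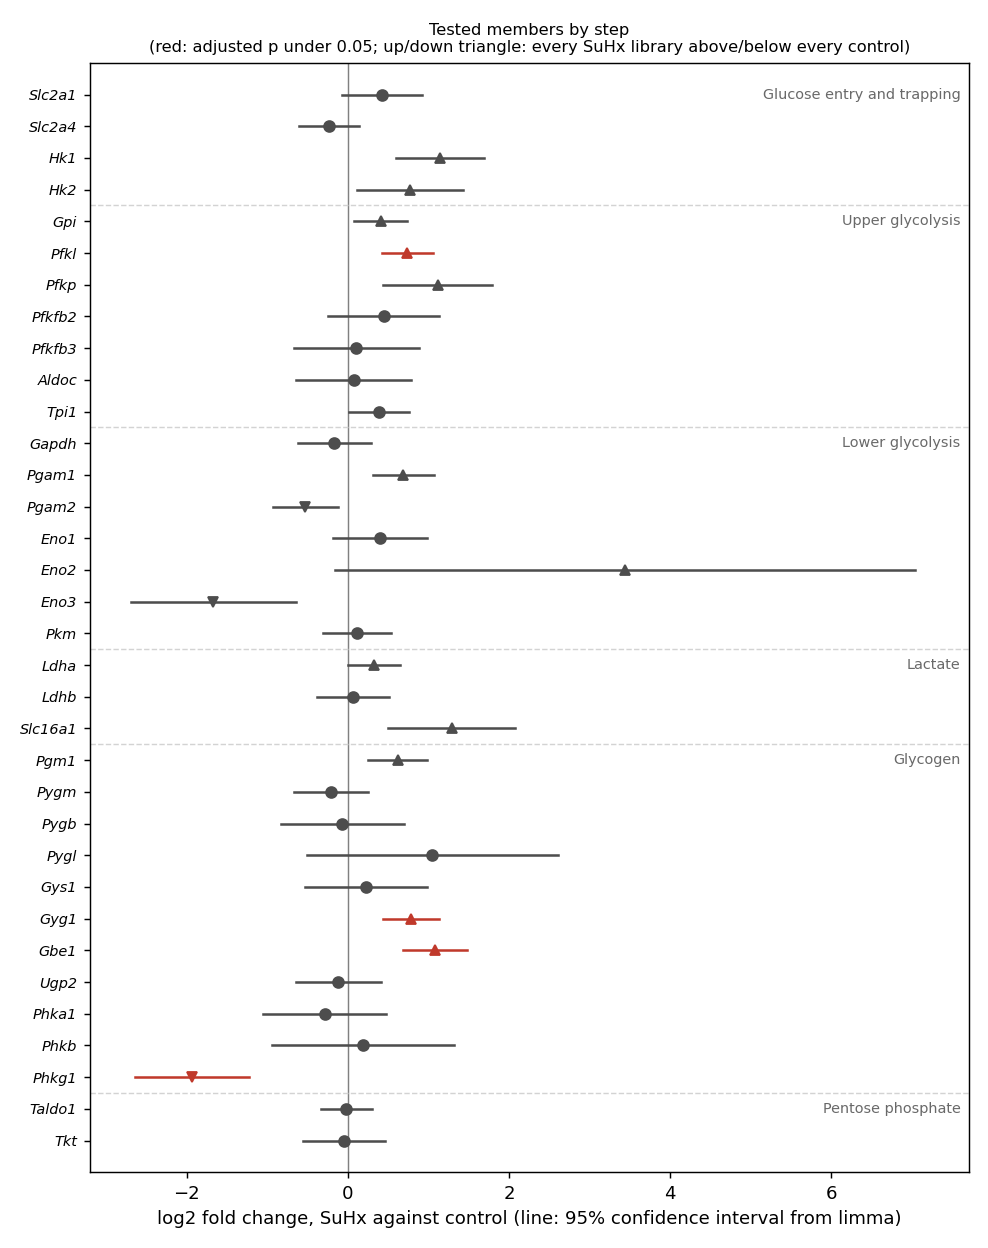
Log2 fold changes (x axis, SuHx against control) of the 34 tested genes, grouped by step, with lines for the 95% confidence interval from limma. Red marks an adjusted p under 0.05 (Gbe1, Gyg1, Pfkl and Phkg1), and triangles mark the 15 genes whose groups did not overlap, 12 pointing up and 3 pointing down.

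Promoter sequence is shown for the 4 genes that passed the test and for Ldha, a gene known to be induced by hypoxia, so that the regions upstream of genes that rose and of the one that fell can be set side by side. The sequences are those of RefSeq on the build GRCr8, 5′ to 3′ on the strand of the gene, and cover the 250 bases before the annotated start. Capitals mark ACGTG or GCGTG on either strand, the core letters of the hypoxia response element.
Gbe1, chr11:22181026-22181275 (plus strand): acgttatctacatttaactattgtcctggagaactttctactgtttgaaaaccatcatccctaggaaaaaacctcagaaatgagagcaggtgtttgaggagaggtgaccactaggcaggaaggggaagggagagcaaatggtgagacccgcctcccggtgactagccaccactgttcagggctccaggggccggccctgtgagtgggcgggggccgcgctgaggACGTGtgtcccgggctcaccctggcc
Gyg1, chr2:104582778-104583027 (minus strand): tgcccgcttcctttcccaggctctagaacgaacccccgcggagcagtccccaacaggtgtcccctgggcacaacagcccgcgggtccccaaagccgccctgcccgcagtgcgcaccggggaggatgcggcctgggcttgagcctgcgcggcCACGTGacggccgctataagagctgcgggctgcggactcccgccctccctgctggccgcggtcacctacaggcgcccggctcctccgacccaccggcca
Ldha, chr1:106507842-106508091 (plus strand): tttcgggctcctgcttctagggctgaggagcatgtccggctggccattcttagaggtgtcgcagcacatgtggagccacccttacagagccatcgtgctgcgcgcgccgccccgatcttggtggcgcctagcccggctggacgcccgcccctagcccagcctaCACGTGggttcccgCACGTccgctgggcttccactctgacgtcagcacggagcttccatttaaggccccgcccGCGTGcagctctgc
Pfkl, chr20:10663715-10663964 (plus strand): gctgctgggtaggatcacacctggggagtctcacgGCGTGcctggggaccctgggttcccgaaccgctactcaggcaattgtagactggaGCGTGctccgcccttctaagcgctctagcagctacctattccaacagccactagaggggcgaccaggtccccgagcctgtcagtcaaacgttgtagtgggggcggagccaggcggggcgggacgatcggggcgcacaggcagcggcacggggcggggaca
Phkg1, chr12:32474827-32475076 (plus strand): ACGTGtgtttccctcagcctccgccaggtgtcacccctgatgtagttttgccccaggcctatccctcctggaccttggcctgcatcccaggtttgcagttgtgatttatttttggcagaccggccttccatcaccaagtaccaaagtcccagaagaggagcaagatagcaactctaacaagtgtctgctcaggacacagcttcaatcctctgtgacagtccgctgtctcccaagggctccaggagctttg

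In Gbe1 the capitals begin 26 bases before the start, and in Gyg1 they form the palindrome CACGTG, which holds ACGTG on each strand, 99 bases before it. Ldha has CACGTG at 87 bases, a further ACGTG at 73 bases and GCGTG at 14 bases before the start. Pfkl has GCGTG at 215 and 160 bases, and Phkg1 has ACGTG at the far end of the window, 250 bases before its start. In windows of 250 bases before to 50 bases after the start, ACGTG was found in 16 of the 36 genes with a promoter in the RefSeq table (44.4%), GCGTG in 17 (47.2%), CACGTG in 4 (11.1%) and the TATA box letters TATAAA in 6 (16.7%), searched on both strands. Among all 27457 promoters of that table the shares were 19.7%, 31.1%, 6.65% and 14.3%. Among the 9218 promoters of genes in the deposited table they were 24.7%, 48.75%, 8.94% and 6.99%. In the 250 bases before the start, ACGTG was found in 7 of the 12 genes with every SuHx library above every control, in 1 of the 3 with every SuHx library below and in 7 of 18 tested genes whose groups overlapped. GCGTG was found there in 5 of the 12, in 0 of the 3 and in 12 of the 18. In that shorter window ACGTG was found in 41.67% of the 36 genes and in 21.45% of the promoters of genes in the deposited table. For GCGTG these shares were 47.22% and 43.73%. A match is of letters only and does not show binding.

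Hexokinase and glucose transporter genes are given first, as the entry of the pathway. Hk1, the hexokinase of most tissues, was at 1340, 1662 and 882 normalised counts in control and 2906, 2843 and 2586 in SuHx. Every SuHx library was above every control, and the log2 fold change was 1.15 (95% confidence interval 0.60 to 1.69, adjusted p = 0.058 from limma), which missed the threshold. Hk1 passed without control 3, where the log2 fold change was 0.89 (adjusted p = 0.022). Hk2, the insulin-responsive hexokinase of muscle, was at 1106, 1332 and 608 normalised counts in control and 1785, 1632 and 1533 in SuHx, a log2 fold change of 0.77 (interval 0.12 to 1.43, adjusted p = 0.23). Its log2 fold change was 0.44 without control 3, the lowest library for both hexokinase genes. For GLUT1 the groups overlapped, with Slc2a1 at 241, 200.0 and 183 normalised counts in control and 284, 348 and 218 in SuHx (interval of the log2 fold change -0.066 to 0.92). For GLUT4 they overlapped too, with Slc2a4 at 2334, 3065 and 2486 in control and 2037, 2509 and 2153 in SuHx (interval -0.61 to 0.14). Endothelial cells are a known source of GLUT1, and 7 endothelial markers summed to 5270 to 8919 normalised counts in control and 5776 to 6878 in SuHx.

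Phosphofructokinase commits glucose to glycolysis, and its liver-type gene Pfkl rose. The muscle-type gene Pfkm is not analysed here, so the values of Pfkl and Pfkp do not cover the whole step. Pfkl was at 429, 390 and 442 normalised counts in control and 747, 710 and 650 in SuHx. The groups did not overlap, and the log2 fold change was 0.74 (standard error 0.13, 1.67-fold, adjusted p = 0.040 from limma). Pfkl did not pass without control 1 (adjusted p = 0.10), control 2 (0.11), SuHx A (0.15), SuHx B (0.15) or SuHx C (0.15), nor at the same total (log2 fold change 0.42, adjusted p = 0.30). Mitochondrial transcripts took 52.0% to 56.9% of the normalised counts in control and 55.0% to 67.5% in SuHx, where library B was the highest. With libraries at the same non-mitochondrial total Pfkl did not pass (adjusted p = 0.073 from limma) and Hk1 did (0.049), and with no mean-variance trend Pfkl did not pass either (0.081). The platelet-type gene Pfkp was at 408, 225 and 182 normalised counts in control and 615, 523 and 532 in SuHx, so every SuHx library was above every control. Its log2 fold change was 1.12 (interval 0.44 to 1.79, adjusted p = 0.11 from limma), and it passed without control 1 (1.45, adjusted p = 0.024). Control 1, the highest control for Pfkp, was also the library with the atrial markers, and the part of atrial tissue in this value was not tested.

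Gpi, which turns glucose 6-phosphate into fructose 6-phosphate, was at 4096, 4693 and 3880 normalised counts in control and 5986, 5510 and 5293 in SuHx. The SuHx values were all higher, with a log2 fold change of 0.41 (interval 0.080 to 0.74, adjusted p = 0.20 from limma). With libraries at the same total the log2 fold change of Gpi was 0.088 (adjusted p = 0.83 from limma). Tpi1, which interconverts the triose phosphates, overlapped by a single library, with 4400, 5621 and 4413 normalised counts in control and 6693, 6538 and 5587 in SuHx. The genes of the bisphosphate switch, whose product fructose 2,6-bisphosphate activates phosphofructokinase, did not move together. Pfkfb2, the heart form, was at 233, 325 and 191 normalised counts in control and 242, 318 and 477 in SuHx, and Pfkfb3, the inducible form, at 177, 244 and 428 in control and 221, 350.0 and 299.9 in SuHx, both with overlapping groups. Pfkfb1, the liver and muscle form, was low and below the minimum for testing. It was at 7.84, 12.5 and 11.95 normalised counts in control, was listed at 0 in SuHx A and B and was at 1.91 in SuHx C. No fold is given, since a value of exactly 0 may stand for an estimate that failed. Pfkfb4 was at 10.6, 0 and 17.5 normalised counts in control and 0, 0 and 9.80 in SuHx. Aldoc, the brain-type aldolase gene, was at 31.3 to 47.8 normalised counts in control and 31.8 to 54.3 in SuHx.

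In lower glycolysis no gene passed the test, and the isoforms of phosphoglycerate mutase lay in opposite directions. Pgam1, the widely expressed phosphoglycerate mutase, was at 1471, 1381 and 1146 normalised counts in control and 2434, 1895 and 2120 in SuHx. Pgam2, the muscle form, was at 3018, 3245 and 3874 in control and 2549, 2578 and 1939 in SuHx. For both genes the groups did not overlap, with log2 fold changes of 0.69 for Pgam1 (interval 0.31 to 1.07, adjusted p = 0.083 from limma) and -0.53 for Pgam2 (interval -0.93 to -0.12, adjusted p = 0.18), and neither passed.

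Eno3, the muscle enolase, was at 3166, 3915 and 3601 normalised counts in control and 1731, 1584 and 508 in SuHx. All SuHx values lay under the controls, and SuHx C was far under the other SuHx libraries. The log2 fold change was -1.67 (interval -2.69 to -0.64, adjusted p = 0.11 from limma) and was -1.10 without SuHx C (adjusted p = 0.087), and at the same total it was -1.99 and passed (adjusted p = 0.018). Eno1, the widely expressed enolase, overlapped, with 4313, 5548 and 5618 normalised counts in control and 7342, 8887 and 4766 in SuHx. Eno2, the neuronal enolase, was listed at 0 in control 1, with 69.8 and 74.5 normalised counts in controls 2 and 3, against 181, 156 and 237 in SuHx. Its level was low, and every SuHx library lay above every control. Gapdh and Pkm had overlapping groups. Gapdh was at 18625 ± 3301 normalised counts in control and 16517 ± 2109 in SuHx (SD, n = 3 each), an interval of the log2 fold change of -0.61 to 0.28. Pkm, the pyruvate kinase of muscle and other tissues, was at 8046 ± 1652 in control and 8586 ± 285 in SuHx (SD, n = 3 each), an interval of -0.31 to 0.54.

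**Figure D2:**
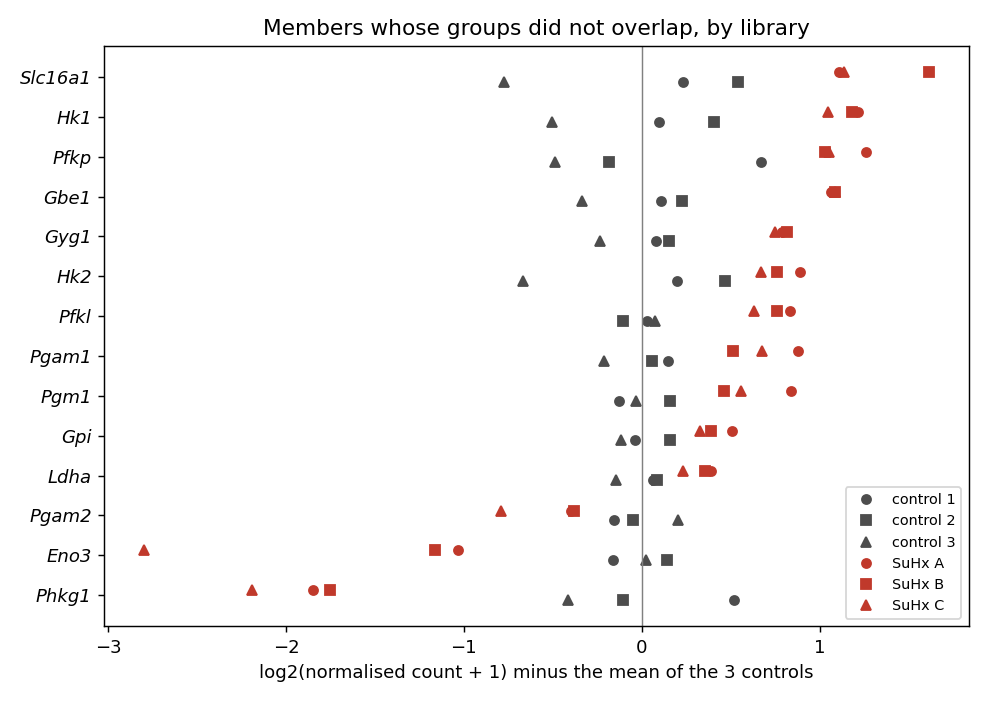
Log2(normalised count + 1) of each library minus the mean of the 3 controls (x axis) for the 14 genes whose groups did not overlap and that had no value listed at 0. The control points (grey) spread more than the SuHx points (red) for genes such as Hk2, Slc16a1 and Gbe1, with control 3 on the left, while Eno3 spread most in SuHx, with SuHx C farthest to the left.

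Isoform balance was described by the log2 ratio of paralogues. When the groups are compared, a constant effect of transcript length and the scaling of a library cancel in this ratio. A loss of long transcripts that differs between libraries would not cancel. The level of long transcripts given above was lower in every control than in every SuHx library, and its part in the ratios was not tested. Of 15 pairs listed, 12 could be computed, since Pfkm and Aldoa are not analysed here. The ratio of Eno1 to Eno3 was 0.45, 0.50 and 0.64 log2 units in control and 2.08, 2.49 and 3.23 in SuHx. The mean differed by 2.07 log2 units, or 4.20-fold, and by 1.76 without SuHx C. The ratio of Pgam1 to Pgam2 was -1.04, -1.23 and -1.76 in control and -0.066, -0.44 and 0.13 in SuHx, a difference of 1.21 log2 units, or 2.32-fold. That of Hk1 to Hk2 was 0.28, 0.32 and 0.54 in control and 0.70, 0.80 and 0.75 in SuHx, a difference of 0.38 log2 units. These ratios therefore all lay higher in every SuHx library than in every control, away from the muscle form for enolase and phosphoglycerate mutase. The groups also did not overlap for Eno2 to Eno3 and for Pfkfb1 to Pfkfb2, which include values listed at 0. For each of these 5 pairs a two-sided exact permutation test gave p = 0.1, its minimum with 3 libraries per group, and 0.24 after Benjamini-Hochberg adjustment over the 12 pairs, so none could pass. For the other 7 pairs the groups overlapped, with exact permutation p of 0.2 to 0.8. Slc2a1 to Slc2a4 differed by 0.66 log2 units, Pygl to Pygm by 1.26, Ldha to Ldhb by 0.26 and Pygb to Pygm by 0.15. Single libraries weighed on these values. Pygl to Pygm differed by 0.49 without control 2 and by 1.94 without control 3, and Ldha to Ldhb by 0.44 without control 1 and by 0.15 without control 3. Skeletal muscle shares the muscle forms, and 6 of its 8 listed markers summed to 17937 to 26897 normalised counts in control and 31697 to 86712 in SuHx. Acta1, an actin gene that the heart also expresses, was at 1592, 6589 and 2766 in control and 72990.0, 21077 and 23787 in SuHx, and made up the rise of the sum. Ckm, the muscle creatine kinase, was lower in every SuHx library, at 16292, 20270.0 and 15581 in control and 13676, 10575 and 9669 in SuHx, and Mylpf and Tnni2 were at 0 to 4.03 and 0 to 7.67 over all libraries. Leukocyte markers summed to 968 to 1534 normalised counts in control and 1108.5 to 2668 in SuHx. Fibroblast markers summed to 20095 to 32924 and 26632 to 27569, and erythroid markers to 6590 to 21887 and 12017 to 25634. The groups overlapped in each of these sums. The part of other cell types in the ratios was not tested.

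**Figure D3:**
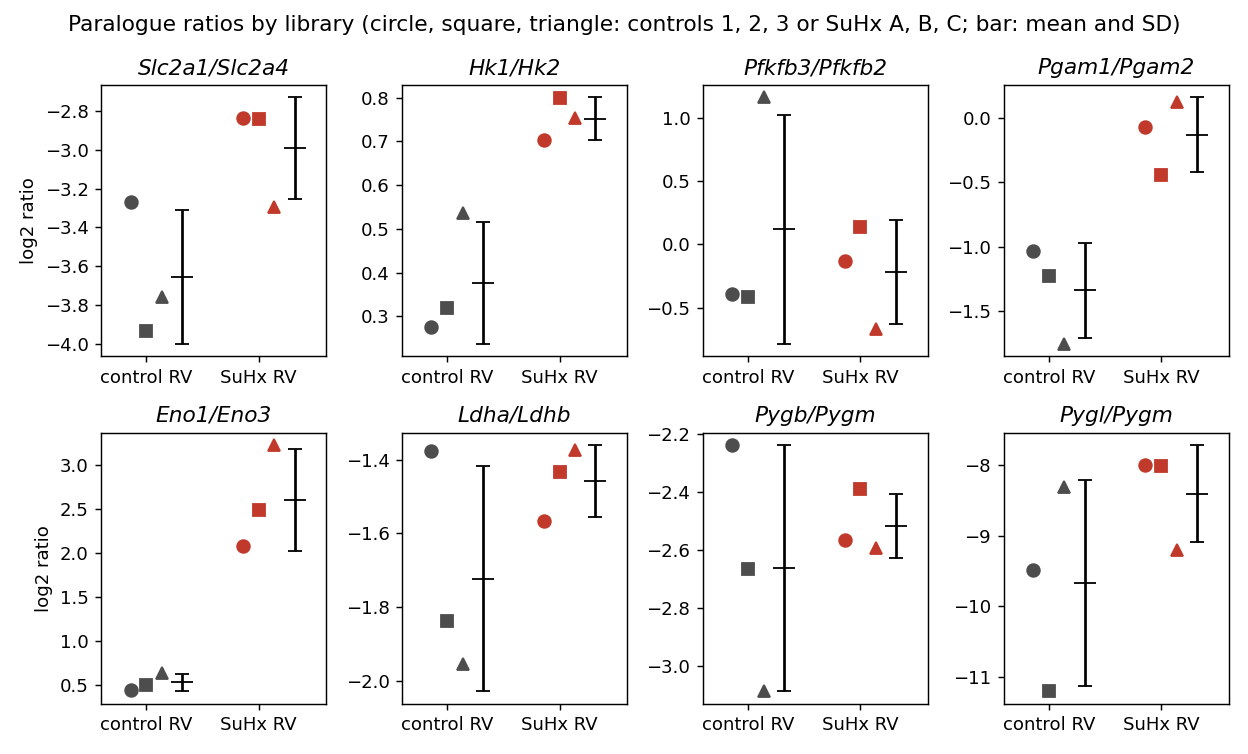
Log2 ratio of the normalised counts of paralogues in each library (y axis), with the mean and SD of each group, for the 8 pairs with no value listed at 0. Eno1/Eno3, Pgam1/Pgam2 and Hk1/Hk2 are higher in every SuHx library than in every control, and the other 5 pairs overlap.

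None of the lactate genes passed the test, and the transporter gene Slc16a1 had the largest log2 fold change of the 3 tested. Slc16a1, which encodes the monocarboxylate transporter MCT1 that carries lactate across the cell membrane, was at 1771, 2199 and 880 normalised counts in control and 3257, 4627 and 3320 in SuHx. Every SuHx library exceeded every control, with a log2 fold change of 1.29 (interval 0.50 to 2.08, adjusted p = 0.11 from limma) that did not pass and was 0.90 without control 3 (adjusted p = 0.056). Ldha, the lactate dehydrogenase subunit that is most abundant in skeletal muscle, was at 6379, 6477 and 5524 normalised counts in control and 7997, 7827 and 7171 in SuHx. Its SuHx values were all higher by a small margin (log2 fold change 0.33, interval -0.0017 to 0.65, adjusted p = 0.29). With libraries at the same total the log2 fold change of Ldha was 0.0044 (adjusted p = 0.99 from limma), so its rise depended on the scaling. Ldhb, the heart subunit, overlapped at 20375 ± 3413 normalised counts in control and 21139 ± 2535 in SuHx (SD, n = 3 each), an interval of -0.39 to 0.51. Slc16a3, which encodes MCT4, was listed at 0 in controls 1 and 3 and in SuHx A and C and was at 13.5 in control 2 and 43.0 in SuHx B, too low to compare.

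On the side of glycogen synthesis Gbe1 and Gyg1 rose. Gbe1, the branching enzyme that adds side chains to glycogen, was at 595, 647 and 438 normalised counts in control and 1159, 1177 and 1175 in SuHx. The SuHx mean was 1170.3 ± 9.65 (SD, n = 3), and the log2 fold change was 1.08 (standard error 0.17, 2.12-fold, adjusted p = 0.029 from limma). Gyg1, glycogenin, the protein on which a new glycogen particle is begun, was at 944, 992 and 757 normalised counts in control and 1541, 1570 and 1500.0 in SuHx. The groups again did not overlap, and the log2 fold change was 0.78 (standard error 0.15, 1.72-fold, adjusted p = 0.044 from limma). Pgm1, which links glucose 1-phosphate with glucose 6-phosphate and so serves both directions, was at 1247, 1520 and 1330 normalised counts in control and 2439, 1875 and 2003 in SuHx. Every SuHx library was above every control for Pgm1, but it did not pass (log2 fold change 0.62, interval 0.25 to 0.99, adjusted p = 0.10). Ugp2, which makes UDP-glucose, and Gys1, the muscle glycogen synthase that consumes it, overlapped between the groups. Ugp2 was at 1643, 2434 and 1307 normalised counts in control and 1602, 1628 and 1569 in SuHx, and Gys1 at 1915, 2281 and 913 in control and 1830, 2023 and 1728 in SuHx. The intervals of their log2 fold changes were -0.64 to 0.41 and -0.53 to 0.98.

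On the side of glycogen breakdown a single gene fell. Phkg1, the catalytic subunit of muscle phosphorylase kinase, the enzyme that switches on glycogen phosphorylase, was at 124, 80.2 and 64.7 normalised counts in control and 23.3, 25.0 and 18.1 in SuHx. The highest SuHx library was far under the lowest control, and the log2 fold change was -1.93 (standard error 0.30, adjusted p = 0.028 from limma). The regulatory subunits of the same kinase overlapped between the groups. Phka1 was at 221, 301 and 122 normalised counts in control and 139, 193 and 167 in SuHx, and Phkb at 92.1, 88.5 and 24.8 in control and 68.0, 66.2 and 67.7 in SuHx. Phkg2, the liver form of the catalytic subunit, was at 35.8, 60.4 and 81.6 normalised counts in control and 65.8, 49.9 and 70.6 in SuHx (adjusted p = 0.88). Of the phosphorylases, which release glucose from glycogen, the muscle form Pygm was at 12290 ± 2680 normalised counts in control and 10445 ± 787 in SuHx (SD, n = 3 each). The brain form Pygb was at 2704, 2315 and 1108 in control and 1874, 2037 and 1585 in SuHx, and the liver form Pygl at 5.21 to 28.8 in control and 15.3 to 42.5 in SuHx. The groups overlapped for each phosphorylase gene, with intervals of the log2 fold change of -0.67 to 0.25 for Pygm, -0.82 to 0.69 for Pygb and -0.51 to 2.61 for Pygl.

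**Figure D4:**
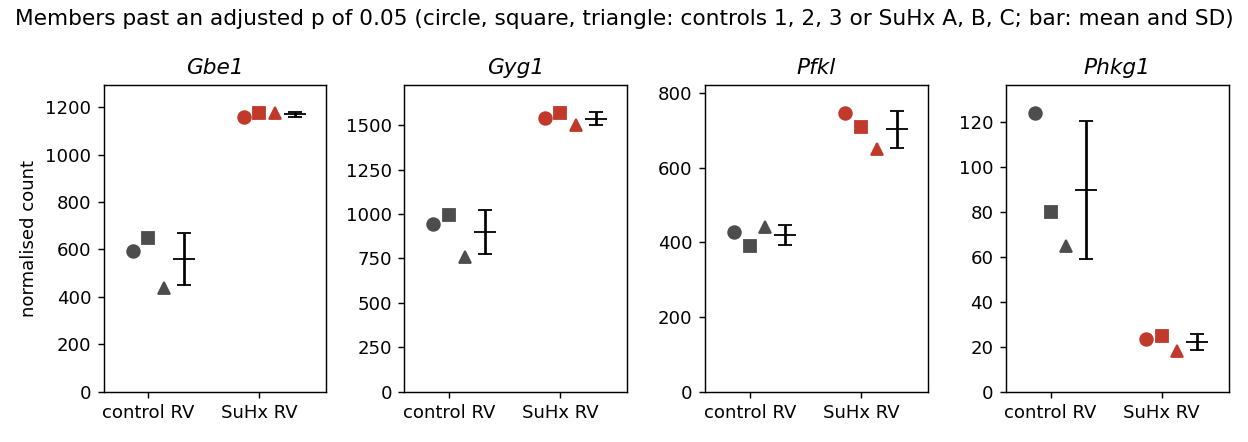
Normalised counts (y axis, from 0) of the 4 genes past an adjusted p under 0.05 in each library, with the mean and SD of each group. The SuHx libraries of Gbe1 lie at 1159 to 1177 against 438 to 647 in control, and those of Phkg1 at 18.1 to 25.0 against 64.7 to 124.

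The glycogen calls held without control 3, but not without any one of the SuHx libraries or without control 1. Gbe1 did not pass without control 1 (adjusted p = 0.060 from limma), SuHx A (0.11), SuHx B (0.11) or SuHx C (0.14), while its log2 fold change stayed between 0.91 and 1.19. Gyg1 did not pass without control 1 (adjusted p = 0.096), control 2 (0.082), SuHx A (0.16), SuHx B (0.16) or SuHx C (0.19), with log2 fold changes of 0.67 to 0.86. Phkg1 did not pass without control 1 (adjusted p = 0.063), control 2 (0.077), SuHx A (0.096), SuHx B (0.080) or SuHx C (0.13), with log2 fold changes of -2.14 to -1.67. At the same total Gbe1 (log2 fold change 0.76, adjusted p = 0.14) and Gyg1 (0.46, adjusted p = 0.27) did not pass, whereas Phkg1 did. With no mean-variance trend Gbe1 (adjusted p = 0.065 from limma) and Gyg1 (0.092) did not pass and Phkg1 did (0.044).

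Control 3 was the lowest of the 6 libraries for 18 of the 34 tested genes (52.9%), where it was the lowest for 27.9% of all tested genes. It was the lowest for 9 of the 12 genes with every SuHx library above every control, where the lowest is always a control. Among the controls alone, control 3 was the lowest for 55.9% of the 34 genes and for 40.2% of all tested genes. Without control 3, the median log2 fold change of these genes was 0.25, and 4 were higher (Hk1, Pfkl, Gyg1 and Gbe1) and 1 lower (Phkg1), beside 266 higher and 136 lower among all genes in that setting. The SD of log2(normalised count + 1) was smaller among SuHx than among control libraries for 26 of the 34 genes (76.5%), against 66.1% of all tested genes.

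The pentose phosphate genes Taldo1 and Tkt had overlapping groups. Taldo1, transaldolase, was at 478, 477 and 562 normalised counts in control and 504, 513 and 475 in SuHx. The interval of its log2 fold change was -0.34 to 0.30 (adjusted p = 0.95 from limma). Tkt, transketolase, was at 497, 418 and 737 normalised counts in control and 496, 509 and 551 in SuHx, an interval of -0.55 to 0.46 (adjusted p = 0.93). Both enzymes belong to the non-oxidative branch.

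Other genes of the same pathways were listed beside the 42. Of 70 such genes 46 were tested, and limma called 0 higher and 0 lower, while 3 were above and 3 below control with an unadjusted p under 0.05, beside 1031 and 814 of all 10725 genes. Their median log2 fold change was 0.066. The lowest adjusted p was that of Tbc1d1, a regulator of GLUT4 traffic, at 173, 203 and 228 normalised counts in control and 292, 308 and 360 in SuHx (log2 fold change 0.67, adjusted p = 0.099). Among 13 other genes of glycogen, Ppp1r3c, which targets protein phosphatase to glycogen, was at 1480.0, 2041 and 1291 normalised counts in control and 2104, 2267 and 1890 in SuHx (adjusted p = 0.34). Gsk3a and Gsk3b, kinases that inhibit glycogen synthase, were the only 2 of the 13 with every SuHx library above every control (15.4%), and neither passed. Of all tested genes 12.9% lay so. Of the 46 other genes of these pathways 8.70% lay above every control and 8.70% below. Among 5 other genes of glucose transport and phosphorylation, 0 lay above every control in every SuHx library. Below every control lay 3 (60.0%), against 11.6% of all tested genes. The median log2 fold change of the 5 was -0.34, and 0 passed. Gsk3b was at 256, 266 and 125 normalised counts in control and 340, 353 and 304 in SuHx (log2 fold change 0.70, adjusted p = 0.28), and Gsk3a at 515, 574 and 443 in control and 620, 667 and 613 in SuHx (0.32, adjusted p = 0.32). Among 7 other pentose phosphate genes, H6pd, the hexose 6-phosphate dehydrogenase of the endoplasmic reticulum, was at 172 to 239 normalised counts in control and 172.6 to 235 in SuHx. Rpia, which isomerises ribose 5-phosphate, was at 152, 119.8 and 137 in control and 73.6, 113 and 97.3 in SuHx, lower in every SuHx library but not past the threshold (adjusted p = 0.26). Of 13 regulators of glucose use, Txnip, an inhibitor of glucose uptake, was at 5082, 5787 and 8103 normalised counts in control and 5219, 5666 and 4826 in SuHx (adjusted p = 0.57). Pdk2, a kinase that switches off pyruvate dehydrogenase, was at 2850.3, 3438 and 1236 in control and 2779, 2685 and 2554 in SuHx (adjusted p = 0.79). Bsg, the chaperone of the lactate transporters, was at 3912 to 4724.5 in control and 4153 to 5875 in SuHx, and Mpc1, a subunit of the mitochondrial pyruvate carrier, at 3356 to 4906 in control and 4854 to 4988 in SuHx. Hif1a, the oxygen-regulated factor that induces many glycolytic genes, was at 291 to 381 in control and 250.1 to 308 in SuHx (adjusted p = 0.42).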

How the data were processed

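Counts were made by the authors with Salmon (version 0.14.1) on an index stated as mouse GRCm38.p6, although some gene names are rat ones, then normalised in DESeq2 (version 1.24.0). What the authors deposited is a normalised signal for each gene in each library, called normalised counts here, and raw counts were not used here. Low values differ between genes within a library, so whole reads were not rebuilt, the reads behind each value are unknown and no count model was run. The entry with no gene name, at most 0.00514% of a library, was left out.

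The 10725 genes averaging 10 or more normalised counts were compared as log2(normalised count + 1) with limma (version 3.58.1, R 4.3.3), with a mean-variance trend, two-sided, adjusted by Benjamini-Hochberg over all of them. This scale understates the fold changes of low genes. Exact permutation tests used scipy (version 1.17.1). Only the limma fit was tested on simulated data, in which all genes had the same setting of spread and no library stood apart. The permutation tests, the ratios and the promoter search were not tested in this way. Genes given per library were those past an adjusted p of 0.05, those with groups that did not overlap, those listed at 0 and both genes of each paralogue pair, with a few others given for their step. From the other lists, genes past the threshold or else up to 2 of highest mean per list were to be named, and Phkg2, Gsk3a, Gsk3b, Tbc1d1 and Hif1a were named after their values were seen. Some genes the rule names are not reported here. The genes and lists were chosen with earlier results of these data known. Alternatives covered the pseudocount, the filter, the scaling, the moderation, library weights and each library left out.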

Additional observations from a re-analysis of the deposited data

How the results depend on the processing

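Over 17 alternatives, none of the 15 genes with groups that did not overlap turned its sign. Their sign could turn only under rescaling, since every SuHx library of these genes lay on the same side of every control. The other alternatives were therefore no test of it. Of the 19 tested genes that overlapped, 11 turned their sign and 0 passed an adjusted p under 0.05. The 3 genes called higher and the 1 called lower, among 166 and 72 of all genes, became 0 and 2 among 90 and 191 at the same total. With no mean-variance trend 0 were higher among 83 (38 lower), and with library weights 5 were higher among 318 (183 lower). Without controls 1 and 3 together, where the lone control was assumed to vary like the SuHx libraries, 1 was higher and 0 lower among 97 and 8. With single libraries left out, 0 to 4 were higher and 0 to 1 lower, among 11 to 266 and 6 to 136. The log2 ratio of Pfkfb3 to Pfkfb2 ranged from -0.60 to 0.18 and that of Pygb to Pygm from -0.063 to 0.36, each turning its sign without control 3. Causes were not tested, apart from fewer samples where libraries were left out. No paired analysis was possible, since RV tissue was taken after death and the control and SuHx libraries therefore come from different rats. The depth in reads is unknown, which limits genes of low normalised counts such as Pfkfb1, Pfkfb4, Slc16a3, Pygl, Aldoc and Phkg1, the last of them among the 4 calls.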
